A study of Mus musculus with 1078 samples.

Results

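The results cover the T cells of GL261 tumors from losartan-treated mice set against those from control mice. A cell was taken as a T cell when the authors' annotation called it one and it came from the plate sorted for CD3, which gave 76 cells under losartan and 79 under control treatment, of the 1078 cells in the series. Each comparison was made over all T cells and again over T cells with Cd8a and Cd8b1 at 0 (62 losartan and 32 control cells, called CD8-negative here), because the share of CD8 cells differed between the plates. A value of 0 in such a library does not show that the protein was absent. GL261, a glioma line of the C57Bl/6 strain, was grown in the brain of C57Bl/6 mice, of both sexes, which were between 6 and 8 wk of age when the experiment began. The losartan group received 60 mg/kg daily for about 2 wk, and the control group received PBS in its place. Neither group received anti-PD1, for which the study's methods give IgG as the control. T cells from losartan+anti-PD1 (84 cells) and anti-PD1 monotherapy (88 cells) were used as a second pair of plates, which shares no cell with the first. Each group is 1 plate of live CD45+CD3+ cells, 1 cell per well, and no source used here names an animal for any cell, so no test was run. The effect of treatment and that of plate or animal cannot be told apart.

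T cells carry either the CD4 or the CD8 coreceptor beside their antigen receptor, and CD8 cells are the main killers of tumor cells, through granzymes and perforin. Regulatory T cells, which express Foxp3, restrain the others. Type I interferons switch on a shared set of antiviral genes in nearly every cell, T cells included. Losartan blocks the angiotensin II type 1 receptor, and the study asked how it alters the tumor vessels and the immune cells around them.

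The deposited values of these plates were TPM, in which the transcripts of a cell sum to the same total, so read depth is unknown. Genes above 0 per cell are given in its place. Medians were 1954 genes per cell under losartan and 2039 under control in all T cells, and 1975.5 and 1865 in CD8-negative cells. Values are printed per 100000 transcripts of a cell (TP100K). Shares of cells carry exact (Clopper-Pearson) 95% intervals, which cover counting error over cells and not the spread between animals. Most cells of both plates had T cell markers: Cd3d, Cd3e, Cd3g and Cd247, chains of the T cell receptor complex, were each above 0 in 62 to 68 losartan cells and in 62 to 70 control cells. Each plate also had at least 1 cell with these 4 and Cd2 all at 0. Of 3 natural killer cell markers, Ncr1 was at 0 in every cell, Klre1 was above 0 in 8 of 76 losartan and 10 of 79 control cells, and Klrb1c in 3 and 1. Of 10 macrophage and microglia markers, P2ry12 was at 0 in every cell and the other 9 were above 0 in some cell on each plate, with a summed level of 0 to 934 TP100K in losartan cells and 0 to 962 TP100K in control cells (means 50.9 and 61.2). Doublets were not called.

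T cells with CD8 mRNA made up a smaller part of the losartan plate. Cd8a or Cd8b1, the chains of the CD8 coreceptor, was above 0 in 14 of 76 losartan T cells (18.4%, interval 10.5 to 28.97%) and in 47 of 79 control T cells (59.5%, interval 47.9 to 70.4%). With a detection limit of 1 TP100K the shares were 6.58% and 40.5%. Mean Cd8b1 was 10.3 TP100K under losartan, with a highest cell of 476, and 52.2 TP100K under control, with a highest cell of 398. Cd4 was above 0 in 50 of 76 losartan cells (65.8%, interval 54.01 to 76.3%) and in 44 of 79 control cells (55.7%, interval 44.1 to 66.9%), so these intervals overlapped. Cells with Cd4 and no CD8 mRNA were 42 of 76 (55.3%) under losartan and 22 of 79 (27.8%) under control. Cells with Cd4 and CD8 mRNA together were 8 and 22, and cells with neither were 20 and 10. In the second pair of plates CD8 mRNA was found in 32 of 84 losartan+anti-PD1 cells (38.1%, interval 27.7 to 49.3%) and in 64 of 88 anti-PD1 cells (72.7%, interval 62.2 to 81.7%), again fewer with losartan.

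**Figure D1:**
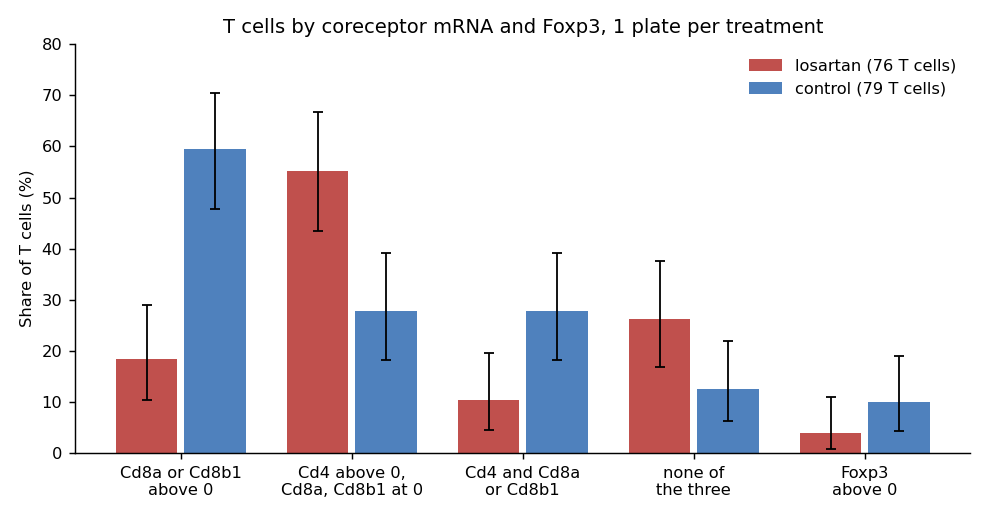
Share of T cells (y axis, %) in which the named mRNAs were above 0, on the losartan plate (red, 76 cells) and the control plate (blue, 79 cells), with exact 95% intervals over cells as bars. The first class includes the third. CD8 mRNA was found in 18.4% of losartan and 59.5% of control T cells, and these intervals do not overlap.

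The deposited clusters split the plates in the same direction. Cluster 4 held 4 of the 76 losartan T cells and 20 of the 79 control T cells, and cluster 0 held the other 72 and 59. Within cluster 0, CD8 mRNA was found in 12 of 72 losartan cells (16.7%, interval 8.92 to 27.3%) and 29 of 59 control cells (49.2%, interval 35.9 to 62.5%). Foxp3 was above 0 in 3 of 76 losartan cells (3.95%, interval 0.822 to 11.1%) and 8 of 79 control cells (10.1%, interval 4.47 to 18.98%), and in 3 of 62 (4.84%) and 5 of 32 (15.6%) CD8-negative cells. The Foxp3 intervals overlapped in both sets. On the second pair of plates Foxp3 was above 0 in 9 of 84 losartan+anti-PD1 and 13 of 88 anti-PD1 cells. Among CD8-negative cells there it was above 0 in 8 of 52 and 10 of 24.

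Across genes, the losartan T cells were close to the control T cells for most of what could be measured. A gene counted as measured where 25% or more of the losartan or of the control cells had a value above 0, and its ratio is the log2 of the mean TP100K after adding 1. Over all T cells 3238 genes were measured, with a median ratio of 0.03. Of these, 190 (5.87%) were past 2-fold, 3.12% at least 2-fold higher and 89 (2.75%) at least 2-fold lower under losartan. Scaling each cell by the 75th percentile of its values above 0 moved the median to -0.11, and 29.1% of the genes past 2-fold were then higher, against 53.2%. In CD8-negative cells 3286 genes were measured (median -0.01), of which 489 (14.9%) were past 2-fold, 200 (6.09%) at least 2-fold higher and 289 (8.79%) at least 2-fold lower. With the highest value of each gene on each side left out, 58.4% of the genes past 2-fold were higher, against 40.9%. Of the genes past 2-fold, 57 higher genes and 63 lower genes were past 2-fold in both sets, 56.4% and 70.8% of those in all T cells. They were 28.5% and 21.8% of those in CD8-negative cells. The CD8-negative cells are part of the whole set, so some overlap is built in. Among cells with CD8 mRNA (14 losartan and 47 control cells), 1057 of 3851 measured genes (27.4%) were past 2-fold. The share past 2-fold was thus larger in the sets with fewer cells, and the part of cell number was not tested.

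In the second pair of plates these genes were split about evenly by direction. Of the genes at least 2-fold higher over all T cells, 89 were measured for losartan+anti-PD1 against anti-PD1, of which 46 were higher (53.7% of all measured genes were), 43 were lower (46.3% were), and 3 were at least 2-fold higher, where 5.72% of all measured genes were. Of the 89 lower genes, 73 were measured, with 38 lower, 35 higher and 4 at least 2-fold lower, where 3.25% of all measured genes were. In CD8-negative cells the 200 higher genes had 92 higher, 93 lower and 26 at least 2-fold higher among those measured in the second pair, where 12.6% of all measured genes were, and 21 at least 2-fold lower, where 9.69% were. Of the 289 lower genes 220 were measured there, with 97 lower (48.7% of all measured genes were) and the rest higher, 22 at least 2-fold lower and 38 at least 2-fold higher.

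Interferon-induced genes had lower means under losartan in most cases. Of 46 such genes in the table, 28 were measured in CD8-negative cells, and 25 of these had a lower mean under losartan, 9 at least 2-fold, against 51.4% and 8.79% of all measured genes. The list median was -0.60. In all T cells 21 of 27 were lower, 5 at least 2-fold, against 46.7% and 2.75% of all measured genes, with a median of -0.34. Ifit1, whose protein binds foreign RNA caps, averaged 5.12 TP100K in losartan CD8-negative cells, with 4 of 62 cells above 0, and 24.8 TP100K in control cells, with 9 of 32 above 0 (log2 ratio -2.08). Oas1a, an enzyme that activates RNase L, averaged 3.98 TP100K under losartan (6 of 62 cells) and 13.3 under control (10 of 32 cells), a ratio of -1.53. Isg15, a ubiquitin-like modifier, averaged 13.5 TP100K under losartan (12 of 62 cells) and 30.99 under control (10 of 32 cells), a ratio of -1.14. Cells of both plates were at 0 for each of these, so the cells overlapped and the plates differed in how many cells were high. Ifit1, Oas1a and Isg15 each met the 25% filter on the control side only, the side with the higher mean. Such a filter favours genes that are high on 1 side, and its part in the counts of lower members was not tested.

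Others past 2-fold lower in CD8-negative cells were transcriptional or antiviral regulators. Irf1 averaged 12.6 and 35.8 TP100K under losartan and control (-1.44), Irf8 9.35 and 22.98 (-1.21), Daxx 4.81 and 16.8 (-1.62) and the Schlafen gene Slfn8 1.76 and 7.53 (-1.63). Over all T cells Ifit3 was the lowest of the list, with a mean of 7.20 TP100K under losartan (6 of 76 cells) and 34.5 under control (21 of 79 cells), a ratio of -2.12. Only the control side met the filter. Ifit3 was above 0 in too few CD8-negative cells to count as measured there, 4 of 62 and 7 of 32. The interferon regulatory factor genes Irf9 and Irf7 were nearer to level in all T cells, at 10.6 TP100K under losartan and 11.9 under control (-0.15) and at 23.7 and 23.6 (0.01), and had ratios of -0.58 and -0.70 in CD8-negative cells. Slfn1, Slfn5 and Ifi35 were the 3 measured members with a higher mean in losartan CD8-negative cells, with ratios of 0.52, 0.16 and 0.21.

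Cell by cell, losartan T cells had 3 to 30 of the 46 genes above 0 (median 12.5) and control T cells 4 to 31 (median 15). In CD8-negative cells the ranges were 3 to 25 (median 12) and 4 to 30 (median 14.5), so the cells overlapped widely. The summed level of the list had a median of 547 TP100K in losartan and 857 TP100K in control CD8-negative cells. Median genes above 0 per cell, as given before, were 1954 under losartan and 2039 under control in all T cells. In CD8-negative cells they were 1975.5 and 1865. The part of detection was not tested. The second pair leaned otherwise: 19 of 30 measured members were higher with losartan+anti-PD1 in CD8-negative cells (median 0.26), where 51.3% of all measured genes were higher, and 14 of 29 in all T cells (median -0.03). In all T cells of that pair 53.7% of all measured genes were higher. Within cells with CD8 mRNA, a comparison added after the data were seen, 15 of 33 members were higher under losartan (median -0.11). All 3851 genes measured in those cells had a median of 0.04. Without cells that had any of C1qa, C1qb, C1qc, Csf1r or Lyz2, myeloid genes, the median in CD8-negative cells was -0.83.

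**Figure D2:**
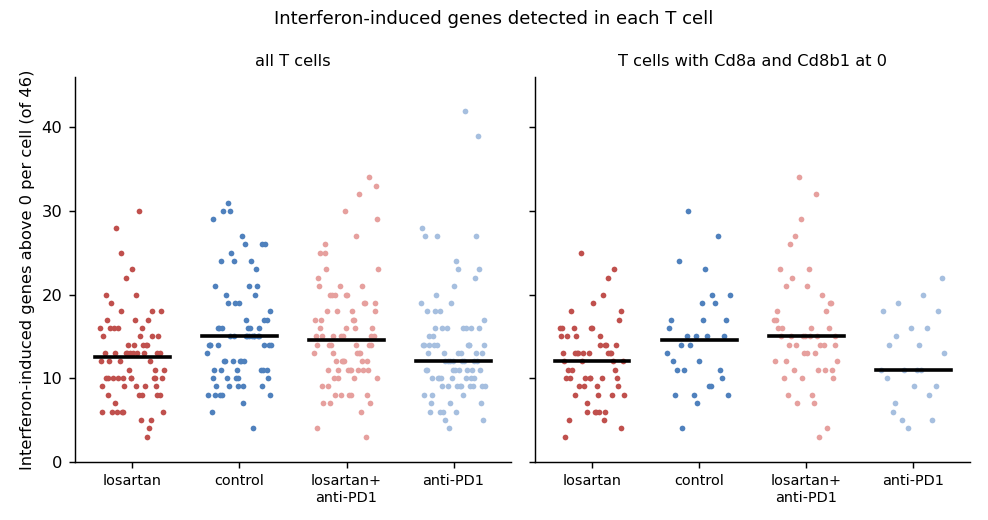
Number of the 46 interferon-induced genes above 0 in each T cell (y axis), by plate (x axis; losartan red, control blue, losartan+anti-PD1 pale red, anti-PD1 pale blue), with 1 point per cell and a black line at the median. Left, all T cells. Right, T cells with Cd8a and Cd8b1 at 0, where the medians were 12 under losartan and 14.5 under control, 15 under losartan+anti-PD1 and 11 under anti-PD1.

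Promoters are shown for 4 of the 9 members that were at least 2-fold lower in CD8-negative cells, since the factors that type I interferon activates bind repeats of GAAA in such regions. The motif searched was GAAA, any 2 bases, then GAAA, on either strand, with overlapping matches counted. RefSeq promoters (GRCm38.p6, 250 bases before the gene start and 50 after) were found by symbol for 21 of the 28 measured members, and 10 of these 21 genes held the motif (47.6%), against 5.01% of the 2474 measured CD8-negative genes with a promoter and 3.99% of all 27025 genes with one. Of the 9 members past 2-fold lower, 5 held it, and the 4 shown are among these. Daxx, Irf1, Irf8 and Samd9l held none. Members with ratios nearer to level also held it, such as Bst2 (-0.36), Trim30a (-0.07) and Slfn5 (0.16). A second, overlapping promoter listed for Slfn8 is not shown. The match is a description of the letters and not of binding. Sequences are given on the strand of the gene, and capitals mark the motif, which in Ifit1 and Slfn8 reads as its reverse complement.
Ifit1, chr19:34640639-34640938, plus strand, with matches that begin at -104 and -85 from the start: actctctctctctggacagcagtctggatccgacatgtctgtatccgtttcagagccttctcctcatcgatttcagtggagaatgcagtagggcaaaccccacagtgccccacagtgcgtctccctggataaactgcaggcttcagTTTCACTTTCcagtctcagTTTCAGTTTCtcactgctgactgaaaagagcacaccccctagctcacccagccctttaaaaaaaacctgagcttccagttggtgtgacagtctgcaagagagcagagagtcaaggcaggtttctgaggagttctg
Oas1a, chr5:120907476-120907775, minus strand, with overlapping matches that begin at -20 and -14: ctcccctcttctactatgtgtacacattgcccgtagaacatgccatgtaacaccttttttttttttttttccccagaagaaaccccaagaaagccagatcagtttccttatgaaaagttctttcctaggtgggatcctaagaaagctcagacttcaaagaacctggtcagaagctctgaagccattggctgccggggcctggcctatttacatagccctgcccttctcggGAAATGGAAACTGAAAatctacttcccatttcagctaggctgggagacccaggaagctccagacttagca
Isg15, chr4:156200769-156201068, minus strand, with overlapping matches that begin at -78, -72 and -66: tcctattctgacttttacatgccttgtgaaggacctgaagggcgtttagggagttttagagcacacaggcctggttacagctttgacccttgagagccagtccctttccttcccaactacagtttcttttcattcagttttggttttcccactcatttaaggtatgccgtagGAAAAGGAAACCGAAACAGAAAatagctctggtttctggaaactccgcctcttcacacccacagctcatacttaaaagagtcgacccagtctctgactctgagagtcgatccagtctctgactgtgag
Slfn8, chr11:83020673-83020972, minus strand, with 1 match that begins at -136: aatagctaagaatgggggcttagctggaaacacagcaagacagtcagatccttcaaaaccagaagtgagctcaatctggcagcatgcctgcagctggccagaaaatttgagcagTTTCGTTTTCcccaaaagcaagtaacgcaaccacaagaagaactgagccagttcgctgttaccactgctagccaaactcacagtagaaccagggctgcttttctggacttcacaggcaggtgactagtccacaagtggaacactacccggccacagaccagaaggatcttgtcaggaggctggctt

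Interferon-gamma also induces a family of GTPases that act against microbes inside cells. Of 10 measured interferon-inducible GTPases, 5 were lower over all T cells (median 0.09, and -0.15 with scaling by the 75th percentile). In CD8-negative cells 6 were lower (median -0.27, and -0.33 with that scaling). These counts were near the shares of all measured genes that were lower, 46.7% and 51.4%. Gbp6, a guanylate-binding protein, averaged 12.8 TP100K in losartan and 34.3 TP100K in control CD8-negative cells (-1.35), while Gbp9 of the same family averaged 6.62 and 2.84 (0.99). Ifng itself averaged 35.1 TP100K in all losartan T cells (19 of 76 above 0) and 30.5 in control T cells (23 of 79 above 0), a ratio of 0.20. The MHC class I list, which interferons also induce, had 12 of 23 measured members higher over all T cells, where 53.3% of all measured genes were. Its median was 0.01, or -0.23 with that scaling.

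Most measured cytotoxic genes had lower means over all T cells, where CD8 cells were fewer. In CD8-negative cells most had higher means, but the summed level of the list was about the same. In all T cells 7 of 11 measured members of the cytotoxic list were lower under losartan, 3 of them at least 2-fold, against 46.7% and 2.75% of all measured genes (median -0.20, and -0.54 with scaling by the 75th percentile). Ccl5, a chemokine of effector cells, averaged 206.9 TP100K under losartan (21 of 76 cells) and 1019 under control (37 of 79 cells), a ratio of -2.29. Gzmb, which encodes granzyme B, averaged 67.1 TP100K under losartan (15 of 76 cells, highest 2415) and 168.8 under control (29 of 79 cells, highest 3661), a ratio of -1.32. Fasl, the ligand of the death receptor Fas, averaged 10.6 and 24.9 TP100K (-1.16). In CD8-negative cells 6 of 9 measured members were higher (median 0.41), 2 at least 2-fold, against 48.6% and 6.09% of all measured genes. The lowest, at -1.03, was the 1 member at least 2-fold lower. The summed level of the list averaged 1034 TP100K in losartan and 1038 in control CD8-negative cells. A median of 3 and 3.5 of its 21 genes were above 0 per cell. Among CD8-negative cells Ccl5 averaged 190.9 TP100K under losartan and 260 under control (-0.44). Among those that also had Cd4 its ratio turned to 3.61, where too few cells had it for it to count as measured. Ly6c2, a surface marker of memory CD8 cells, and Plac8 had ratios of -2.54 and -2.95 over all T cells and of 2.88 and 0.95 among cells with Cd4 and no CD8 mRNA, where neither counted as measured. Klrd1, which encodes the CD94 receptor of killer cells, had the highest ratio of all measured genes in CD8-negative cells, 3.94. It averaged 37.6 TP100K in 62 losartan cells, with 18 above 0 and a highest of 391. In 32 control cells it averaged 1.52 TP100K, with 3 above 0 and a highest of 43.99, so only the losartan side met the filter. NK markers summed to a mean of 12.98 TP100K in losartan and 3.50 TP100K in control CD8-negative cells, with Ncr1 at 0, and their part was not tested. Over all T cells Klrd1 was above 0 in 24 of 76 losartan and 22 of 79 control cells (0.69). For losartan+anti-PD1 against anti-PD1, 13 of 17 measured members of the cytotoxic list were higher over all T cells (median 0.66). Of all measured genes 53.7% were. Gzmb averaged 316.8 TP100K there with losartan+anti-PD1 and 54.6 with anti-PD1 (2.51), opposite in direction to the first pair. In CD8-negative cells of that pair (52 and 24) 13 of 14 were higher, 12 at least 2-fold (median 3.32), against 51.3% and 12.6% of all measured genes.

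Regulatory T cell genes had mostly lower means in CD8-negative cells. Of 13 measured members of the regulatory T cell list, 10 had a lower mean under losartan, 1 at least 2-fold, against 51.4% and 8.79% of all measured genes, with a median of -0.47. Ctla4, an inhibitory receptor that regulatory cells carry, averaged 62.7 TP100K under losartan (40 of 62 cells) and 119.5 TP100K under control (23 of 32 cells), a ratio of -0.92. Ikzf2, which encodes Helios, averaged 1.75 and 4.16 TP100K (-0.91), and the TNF receptors Tnfrsf18 and Tnfrsf4 had ratios of -0.75 and -0.74. Dusp4, a phosphatase of MAP kinases, was the member past 2-fold, at 4.77 and 14.6 TP100K (-1.44). In the whole set 7 of 12 were lower, as were 46.7% of all measured genes, with a median of -0.08, or -0.28 with scaling by the 75th percentile. Foxp3 mRNA averaged 8.53 TP100K under losartan, most of it from few cells (highest 301), and 7.34 under control (highest 171.3). For losartan+anti-PD1 against anti-PD1, 13 of 17 measured members of the list were lower in CD8-negative cells (median -0.46). Of these, 5 were at least 2-fold lower, against 48.7% lower and 9.69% at least 2-fold lower of all measured genes. Over all T cells of that pair 10 of 14 were higher (median 0.54), as were 53.7% of all measured genes.

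Inhibitory receptors, the targets of checkpoint antibodies, were close to level over all T cells. Pdcd1, which encodes PD1, averaged 68.4 TP100K in losartan T cells (43 of 76 above 0) and 67.2 in control T cells (50 of 79 above 0), a ratio of 0.02, and the ratio was -0.17 in CD8-negative cells. Of 9 measured inhibitory genes 5 were higher, with a median of 0.02 (-0.23 with scaling by the 75th percentile) and none past 2-fold. Of all measured genes 53.3% were higher and 5.87% past 2-fold. Lag3 had a ratio of 0.17, Havcr2, which encodes TIM-3, -0.09 and Tigit 0.50. In CD8-negative cells 6 of 11 measured members were lower (median -0.17), as were 51.4% of all measured genes. The lowest ratio there was -0.92, that of Ctla4 given above.

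Among genes of resting and memory T cells, 2 were at least 2-fold higher over all T cells and 1, Ly6c2, at least 2-fold lower (-2.54), against 3.12% and 2.75% of all measured genes. Tcf7, a factor of naive and stem-like T cells, averaged 23.8 TP100K in losartan T cells (33 of 76 above 0) and 9.84 in control T cells (20 of 79 above 0), a ratio of 1.196. Il7r, the receptor for the survival cytokine IL-7, averaged 49.1 and 21.6 TP100K (1.15). In CD8-negative cells these ratios were 0.72 and 0.45. The chromatin organizer Satb1 averaged 2.37 and 0.552 TP100K there (1.12), and S1pr1, which guides exit from tissue, 6.55 and 14.4 (-1.03). The list as a whole had 6 of 11 members higher over all T cells (median 0.13, and 0.02 with scaling by the 75th percentile) and 5 of 9 in CD8-negative cells (median 0.45). Of all measured genes 53.3% and 48.6% were higher in these sets.

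Immediate early genes, which activation induces within minutes, leaned higher under losartan over all T cells. Of 20 measured members 18 had a higher mean, 4 at least 2-fold, with a median of 0.54, against 53.3% and 3.12% of all measured genes. Fos averaged 324 TP100K under losartan and 160 under control (1.02), Egr1 35.6 and 15.3 (1.16), Dusp1 234.2 and 110.1 (1.08) and Zfp36 89.6 and 38.9 (1.18). About as many cells were above 0, 46 of 76 under losartan and 46 of 79 under control for Fos. In CD8-negative cells 15 of 22 were higher (median 0.26), none at least 2-fold, against 48.6% and 6.09% of all measured genes. The lowest, at -1.77, was the 1 member at least 2-fold lower. Without cells that had any of the 5 myeloid genes above, the median was 0.23 over all T cells, with 15 of 19 higher and 1 at least 2-fold, and -0.03 in CD8-negative cells. For losartan+anti-PD1 against anti-PD1, 15 of 23 measured immediate early members were higher over all T cells (median 0.52). In CD8-negative cells 13 of 23 were (median 0.12). Of all measured genes 53.7% and 51.3% were higher there. The glucocorticoid-responsive list had 8 of 8 measured members higher over all T cells (median 0.68), led by Txnip at 26.3 and 8.94 TP100K (1.45). In CD8-negative cells 6 of 8 were higher (median 0.26), where 48.6% of all measured genes were. On the second pair of plates 3 of 7 and 3 of 8 were higher (medians -0.13 and -0.60). The glucocorticoid list shares Dusp1 and Il7r with other lists. The NF-kB list had a median of 0.42 over all T cells and -0.07 in CD8-negative cells, and scaling by the 75th percentile gave 0.15 and 0.08.

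**Figure D3:**
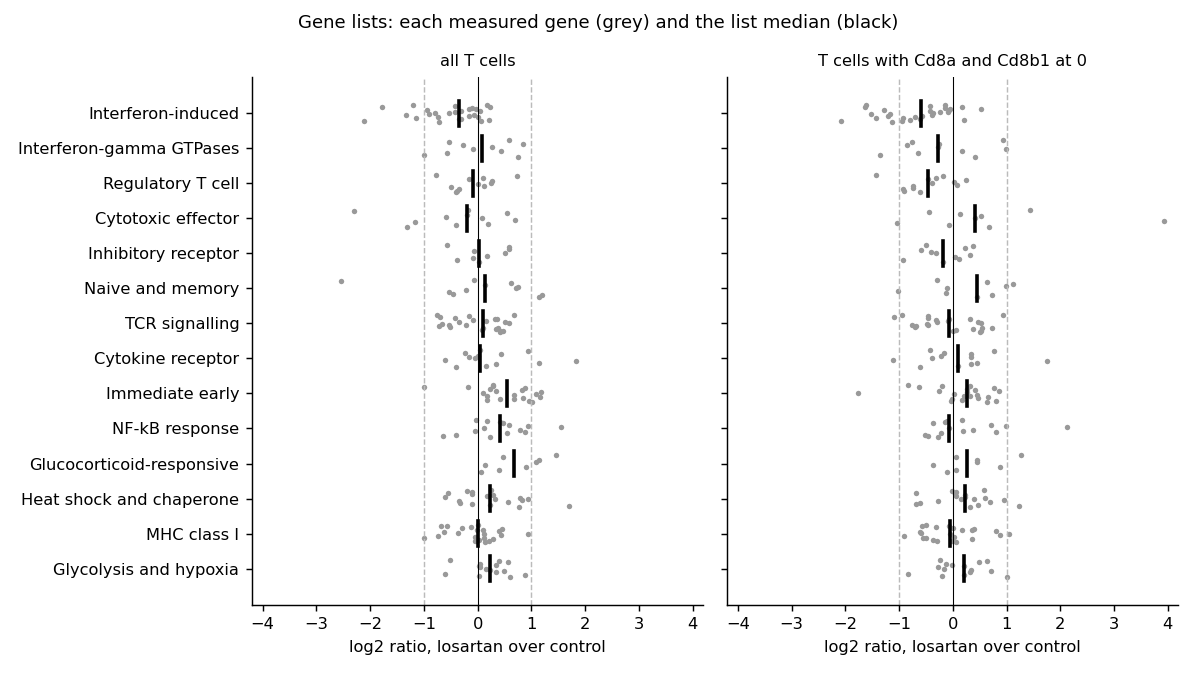
Log2 ratios, losartan over control, of every measured gene of 14 lists (grey points) with the list median (black bar), over all T cells (left) and T cells with Cd8a and Cd8b1 at 0 (right). Dashed lines mark 2-fold. The interferon-induced median lay at -0.34 and -0.60, and the immediate early median at 0.54 and 0.26.

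The mRNA of the losartan target was not detected in these T cells. Agtr1a, the gene of the angiotensin II type 1a receptor, was at 0 in all 76 losartan and all 79 control T cells, which, counted as 3 cells of the total, allows a share of up to 3.95% and 3.797% of cells with a value above 0, while the exact intervals reach 4.74% and 4.56%. This does not limit the share of cells that express the gene. Of 16 genes of the renin-angiotensin list 2 were measured over all T cells: Lnpep, an aminopeptidase that binds angiotensin IV, with a ratio of 0.39, and Ctsd, a lysosomal protease, with 0.47. Of the TGF-beta list, a pathway that losartan is known to dampen in tumors, 7 members were measured, and 6 had a higher mean, as did 53.3% of all measured genes (median 0.11). In CD8-negative cells 4 of 8 were higher (median 0.06). Tgfb1 was above 0 in 2 losartan and 7 control T cells and was not measured by the filter.

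The genes at the ends of the CD8-negative comparison came from many functions and mostly rested on a minority of cells. Lowest was Gem, a small GTPase induced on activation, at 2.002 TP100K in losartan cells (9 of 62 above 0, highest 46.9) and 32.96 in control cells (8 of 32 above 0, highest 701), a ratio of -3.50. The splicing regulator Srsf10 averaged 1.28 and 15.9 TP100K (-2.89). Casp1, the inflammasome protease that matures IL-1, averaged 3.13 TP100K under losartan (7 of 62 cells) and 22.99 under control (14 of 32 cells), a ratio of -2.54. Tbk1, the kinase that activates IRF3, averaged 0.819 and 7.17 TP100K (-2.17), and Jak2, a kinase of cytokine receptors, 0.3604 and 5.11 (-2.17). Casp1 and Jak2 were also among the 10 lowest genes over all T cells, with ratios of -2.22 and -1.77. In the second pair their ratios were 0.94 and 1.09 over all T cells, both toward losartan+anti-PD1.

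At the other end, Polr2k, an RNA polymerase subunit, averaged 13.5 TP100K under losartan and 0.364 under control (3.41). Fkbp3, a prolyl isomerase, averaged 45.2 TP100K under losartan (26 of 62 cells) and 6.14 under control (4 of 32 cells), a ratio of 2.69. Flcn, which encodes folliculin, a regulator of nutrient sensing by mTORC1, averaged 6.94 TP100K (29 of 62 cells) and 0.488 TP100K (5 of 32 cells), a ratio of 2.42. Gsdmd, which encodes the pore-forming protein gasdermin D, averaged 19.2 TP100K under losartan (19 of 62 cells) and 3.49 under control (3 of 32 cells), a ratio of 2.17. For all T cells Flcn had a ratio of 2.43 and Il18r1, a chain of the IL-18 receptor, had 1.83, with 37 of 76 losartan and 22 of 79 control cells above 0. In the second pair the ratios of Flcn and Il18r1 over all T cells were -0.75 and -0.88.

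**Figure D4:**
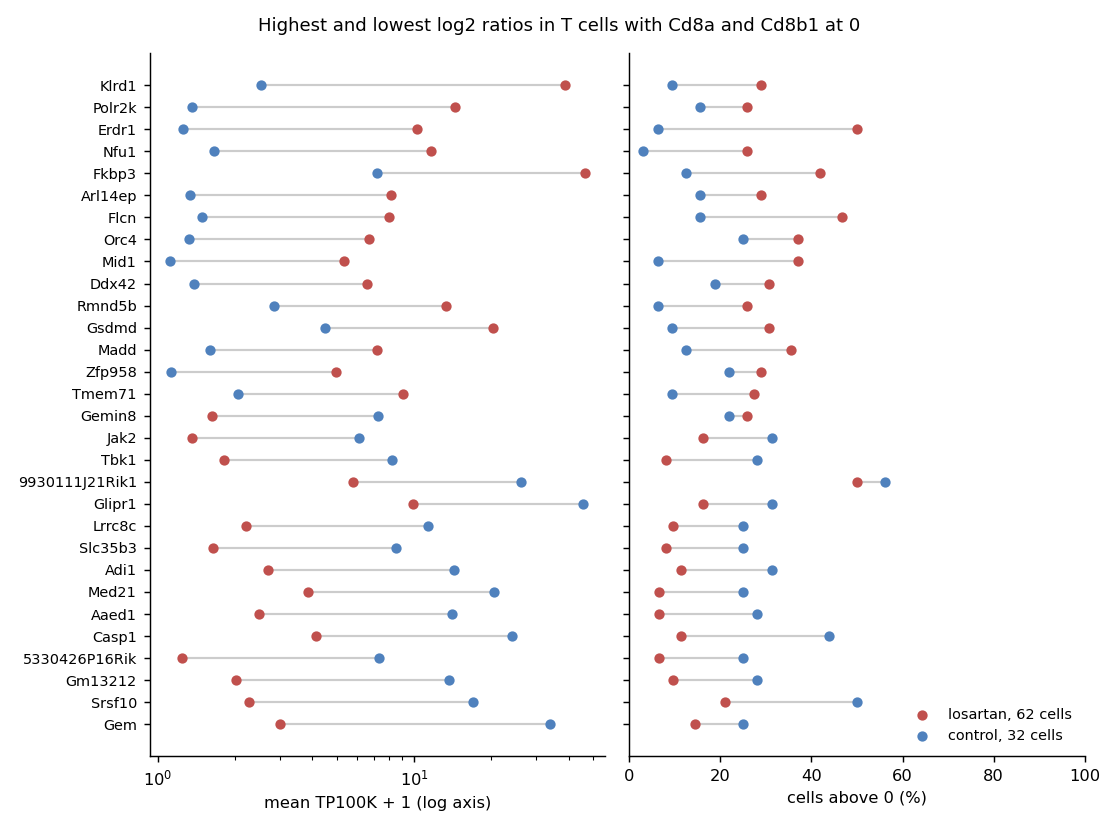
The 15 highest and 15 lowest log2 ratios among measured genes in T cells with Cd8a and Cd8b1 at 0. Left, mean TP100K plus 1 on a log axis; right, share of cells above 0 (%); red, losartan (62 cells); blue, control (32 cells). Klrd1, at the top, averaged 37.6 and 1.52 TP100K, and Gem, at the bottom, 2.002 and 32.96.

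By the share of cells, the largest differences in CD8-negative cells toward control were in Pyhin1, an interferon-inducible gene of the AIM2-like family (12 of 62 losartan and 18 of 32 control cells), Mtpn (18 and 21), Casp1 (7 and 14) and the translation factor gene Eif3a (13 and 17). Socs3, a feedback inhibitor of STAT3 signalling, was above 0 in 16 of 62 and 18 of 32 cells. Toward losartan they were in Erdr1 (31 and 2), Lepr (38 and 8), Hsp90b1 (43 and 12), the chaperone of the endoplasmic reticulum, and H2-Q8 (44 and 13), a class I gene with near-identical neighbours whose reads may be split. Lepr, the leptin receptor gene, was at most 1.71 TP100K in any of these cells, and Nanog, a stem cell factor with known processed pseudogenes, averaged 0.478 and 3.30 TP100K with 26 of 62 and 23 of 32 cells above 0. Shares of genes this low count fractional read assignments and say little of level.

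Erdr1, found in few control T cells, was found in many cells of the other 3 plates. It neighbours Mid1 on chromosome X, Mid1 at chrX:169685199-169990798 and Erdr1 at chrX:170010526-170018797 (GRCm38) in or near the region shared with chromosome Y, so that reads may be split. RefSeq lists Erdr1 as a transcribed pseudogene. Erdr1 had the highest ratio over all T cells, 2.96, at 8.70 TP100K under losartan (37 of 76 cells) and 0.247 under control (8 of 79 cells). It was above 0 in 31 of 84 losartan+anti-PD1 cells (36.9%, interval 26.6 to 48.1%) and 40 of 88 anti-PD1 cells (45.5%, interval 34.8 to 56.4%). Mid1, an E3 ubiquitin ligase gene, was above 0 in 28 of 76 losartan T cells (36.8%, interval 26.1 to 48.7%) and 5 of 79 control T cells (6.33%, interval 2.09 to 14.2%), but also in only 9 of 88 anti-PD1 cells (10.2%). On the CD31 plates of the same treatments Erdr1 was above 0 in 28 of 57 losartan endothelial cells (49.1%, interval 35.6 to 62.7%) and 1 of 43 control endothelial cells (2.33%, interval 0.0589 to 12.3%). In malignant cells of those plates, which are the implanted line and not the host, it was above 0 in 25 of 25 losartan and 32 of 33 control cells. Median genes above 0 per cell were 7008 and 7188 in these malignant cells, against 3126 and 3620 in the endothelial cells. Shares in malignant cells are thus not directly comparable with those in host cells. Mid1 did not follow in endothelium, at 34 of 57 losartan and 23 of 43 control cells. Control T cells and control endothelial cells, from 2 sorts, thus both had few cells with Erdr1, and the part of plate or animal in the other results was not tested.

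**Figure D5:**
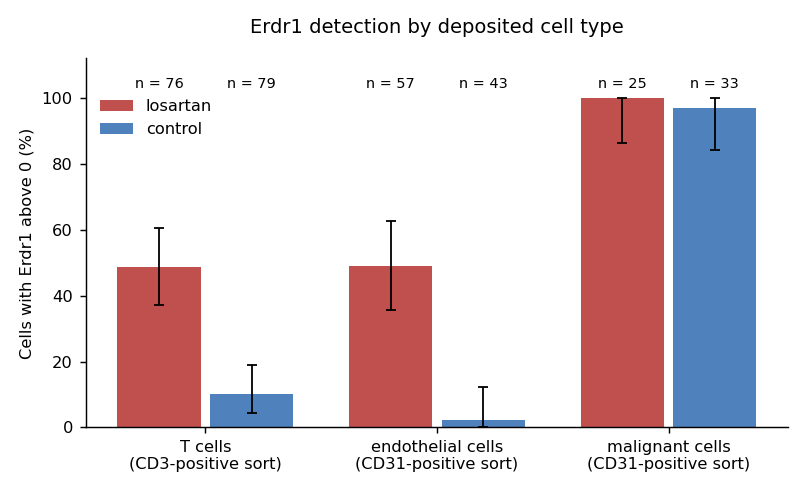
Share of cells with Erdr1 above 0 (y axis, %) by deposited cell type and sort, losartan (red) and control (blue), with exact 95% intervals over cells as bars and the number of cells on top. Control T cells and endothelial cells stood at 10.1% and 2.33%, and malignant cells at 100% under losartan and 96.97% under control.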

How the data were processed

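Live CD45+CD3+ cells of GL261 tumors were sequenced by Smart-seq2, a full-length cDNA method with 1 cell per well. The values deposited by the authors are TPM, made by demultiplexing with bcl2fastq, aligning paired reads to the mm10 transcriptome with Bowtie and running RSEM (1.2.8 per the submitters' processing notes, which also list TopHat, another version in the methods). TPM divides by transcript length and keeps no depth. The authors filtered cells on genes and housekeeping genes detected, and set cell types and clusters with Seurat.

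Treatment came from the GEO labels and cell type from the deposited annotation. Each cell was scaled to 100000, and the log2 ratio of means was taken after adding 1. Genes had to be above 0 in at least 25% of cells of either side. Genes were named by rule: the 15 highest and 15 lowest ratios in CD8-negative cells, the 10 of each in all T cells, the 10 largest share differences each way, examples from 46 gene lists, and 9 genes of interest. Some genes that the rule takes in are not reported here. The members, lists and rules were chosen with earlier results of these data known. Of 1078 cell columns, 338 were used throughout, 158 for Erdr1 and Mid1 only (chosen after the data were seen) and 582 not at all. Promoters and positions came from RefSeq for GRCm38.p6. Alternatives covered the pseudocount, filter, scaling, averaging and cells included. The steps were tested on simulated data. Scripts ran in Python 3.11.15 with SciPy 1.17.1, NumPy 2.4.6, pandas 2.3.3 and, for plots, matplotlib 3.10.9.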

Additional observations from a re-analysis of the deposited data

How the results depend on the processing

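Each treatment is 1 plate, so no spread between animals could be measured and intervals cover counting error over cells only. No paired analysis was possible because the replicate numbers only name cells. The share of measured genes past 2-fold depended on the settings. Over all T cells, 5.87% as reported, it was 12.2% with a pseudocount of 0.1, 0.463% with 10, 10.2% with a filter of 10% of cells, 3.29% with 50%, 1.95% with the mean of ln(TP100K + 1), 19.6% in cells with Cd4 and no CD8 mRNA and 27.4% in cells with CD8 mRNA, the last added after the data were seen. In CD8-negative cells, 14.9% as reported, the first 5 of these gave 24.1%, 0.883%, 20.5%, 6.66% and 3.74%. With the mean of ln(TP100K + 1), 22.2% of the genes past 2-fold over all T cells were higher, against 53.2% as reported. Cells with Cd4 and no CD8 mRNA reversed the ratios over all T cells of Plac8 (0.95), Ly6c2 (2.88), Ccl5 (3.61) and C030034L19Rik (-0.17), the NF-kB list (median -0.0085) and, in the CD8-negative comparison, Lrrc8c (0.24). None of these 5 genes counted as measured in those cells. The causes were not tested. The CD8 share was 6.58% of losartan and 40.5% of control cells with detection above 1 TP100K, and 7.89% and 31.6% with Cd4 at 0. The interferon-induced median kept its sign under these alternatives, between -0.60 and -0.11 over all T cells and between -0.83 and -0.34 in CD8-negative cells. Of the ratios of named genes recomputed, 531 kept their direction and side of 2-fold, 69 came under 2-fold and 5 reversed.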

Other observations

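Genes of protein synthesis and energy supply had list medians near 0 as reported, some of which moved with the scaling. Over all T cells 66 of 80 measured ribosomal protein genes were lower under losartan, none past 2-fold (median -0.16, and -0.36 with scaling by the 75th percentile), but in CD8-negative cells 46 of 78 were higher (median 0.04). Oxidative phosphorylation genes had medians of -0.01 and 0.03 over 67 and 66 measured members, and proteasome genes -0.05 and -0.18 over 34 and 29. For comparison, 53.3% of all measured genes were higher over all T cells and 48.6% in CD8-negative cells. Heat shock and chaperone genes were higher for 11 of 19 measured members over all T cells (median 0.23) and 14 of 19 in CD8-negative cells (median 0.22). Glycolysis and hypoxia genes were higher for 13 of 15 (median 0.23) and 8 of 15 (median 0.20). Scaling by the 75th percentile turned the CD8-negative medians of glycolysis and hypoxia genes to -0.03 and of oxidative phosphorylation genes to -0.02. Over all T cells it gave medians of 0.01 for heat shock and chaperone genes, 0.02 for glycolysis and hypoxia genes and -0.18 for oxidative phosphorylation genes.

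Of the 83 cells that passed quality control on the losartan CD3 plate, 7 were annotated as microglia, and of the 81 on the control plate 2 were. Apoe, a gene of macrophages and microglia, was above 0 in 12 of 76 losartan T cells and 23 of 79 control T cells.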
